A study of Mus musculus with 45 samples.

Results

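Of the 276608 transcripts in the deposited transcript TPM table (a length-corrected level relative to the library), 2471 (0.893%) were intergenic: the authors' classification placed them outside the gene models it was compared with. They were taken by that category alone, and no expression value entered the choice. Before the authors' filter the classification listed 36742 intergenic transcripts among 1883390. The filter kept 6.73% of them, against 14.7% of all transcripts. The 2471 carried 2388 gene names, and 180 of them, under 97 names, are named as antisense (AS) to a gene. They fell into 1375 assembled loci, read here as the G number of each transcript identifier. A single member made up 950 of the loci, while 85 loci held 5 or more members and 669 members in all, so members of a locus share sequence and reads and are not independent.

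The study followed mouse neural progenitor cells (NPC) toward induced pluripotent stem cells with nanopore long reads. The progenitors came from the embryonic stem cell (ESC) line O4G, Oct4-GFP cells made from R1 by adding GFP under the Oct4 promoter, and had been stably transfected with doxycycline-inducible factors, either OKMS or OKS, or were wild type (WT). Induction used FBS-LIF medium with doxycycline. Part of the late cultures were kept in 2i-LIF, in which LIF and inhibitors of GSK3 and MEK replace serum, from day 6 for the R9 libraries, and the labels list no doxycycline for it. For the 22 R9 libraries poly(A) RNA was enriched and read as direct cDNA. For the 23 R10 libraries that step was left out and the cDNA was amplified by PCR.

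In R9 the groups were 4 NPC libraries (OKMS, OKS and WT replicates 1 and 2), 2 ESC libraries in 2i-LIF (O4G and R1), OKMS and OKS at days 2, 4, 6, 10, 14 and 20 in FBS-LIF with doxycycline, 3 libraries in 2i-LIF (OKMS at days 14 and 20, OKS at day 20) and 1 WT library after 2 days of FBS-LIF with doxycycline. In R10 they were 4 NPC libraries (OKMS, OKS and WT replicates 2 and 3), 7 ESC libraries in 2i-LIF (O4G n1 and n2, R1 n1 and n2, R1-Clone3 n1 and n2, and R1 without an n number), OKMS at days 2, 4, 6, 10 and 18, OKS at days 2, 6 and 18, OKMS and OKS at day 18 in 2i-LIF, and 2 WT libraries (replicates 2 and 3) after 2 days of FBS-LIF with doxycycline. Every combination of factor system, day and medium that was sampled had 1 library in a chemistry. The labels do not say that libraries of a group came from separate cultures, so p-values measure the spread between these libraries, which may be technical.

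Transcripts outside known genes come from several sources. Long non-coding RNAs are spliced and polyadenylated like messenger RNAs but hold no long reading frame. Many mammalian promoters also start RNA in the opposite direction, upstream of the gene, which gives divergent transcripts. Pluripotent cells are known for broad transcription outside genes, part of it started by endogenous retroviral elements. CAGE peaks are regions of mapped 5′ caps, and a poly(A) signal such as AATAAA lies just upstream of most true 3′ ends.

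The labelled states were checked on gene CPM. Summed over 8 pluripotency genes (Nanog, Pou5f1 and others), the R10 ESC libraries held 11256 to 13878 CPM and the NPC libraries 17.1 to 28.0, and R9 held 12822 to 14380 against 14.8 to 33.7. Summed over 8 neural progenitor genes (Pax6, Sox9 and others), R10 ESC held 174 to 376 CPM and NPC 6632 to 8003. Assigned transcript reads ranged from 199943 to 605378 a library in R9 and from 241811 to 2129779 in R10. A single read of a 1000-base transcript was worth 1.59 to 5.47 TPM in R9 and 0.393 to 3.24 TPM in R10. The 6 R10 ESC libraries with an n number stood apart: 5.48% to 6.23% of their TPM lay in genic_intron transcripts, against 2.45% in the R1 library without an n number, 1.34% to 1.83% in NPC and 3.11% to 4.88% in the 4 timeline libraries of day 18. The R1 library without an n number stood apart in other ways: antisense transcripts took 7.51% of its TPM, against 2.26% to 3.27% in the other ESC and 4.40% to 6.56% in NPC libraries, and mitochondrial genes 0.124% of its gene CPM, against 1.81% to 2.35% and 0.153% to 1.12%. The part of these differences in the results was not tested. The count of R10 calls is given below also with the R1 library without an n number as the only stem cell library. Named transcripts that lost their call there are given too. The splits, divergent pairs, deep zeros, loci and gene CPM calls were not repeated that way. Across all R10 transcripts tested, the median difference of ESC minus NPC was 0.17 (log2), a shift that moved the split of calls: 13800 higher and 9665 lower as deposited became 11282 and 11254 after quantile normalization.

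The sequences that bear on the starts and ends of the most changed transcripts are shown first. G45795.409, a 419-base transcript high in stem cells, started on the minus strand of chromosome 7 at 27486794, 159 bases upstream of the RefSeq start of Sertad1 (a transcriptional regulator) on the plus strand. The RefSeq promoter window of Sertad1, chr7:27486703-27487002 (plus strand, GRCm38.p6, 250 bases before to 50 after the start), is printed with the 160 bases from the one start to the other in capitals. It holds 20 CG dinucleotides at 62% GC.
Sertad1: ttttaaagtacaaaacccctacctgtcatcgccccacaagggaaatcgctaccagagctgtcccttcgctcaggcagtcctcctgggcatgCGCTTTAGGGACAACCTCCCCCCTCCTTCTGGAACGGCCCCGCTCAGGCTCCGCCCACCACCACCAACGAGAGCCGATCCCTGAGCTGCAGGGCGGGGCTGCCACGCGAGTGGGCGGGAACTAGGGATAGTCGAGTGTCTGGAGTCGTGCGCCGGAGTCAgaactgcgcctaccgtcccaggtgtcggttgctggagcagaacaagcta
G15096.1 and G10995.5, both high in progenitors, started instead on the same strand as a RefSeq lncRNA. G15096.1 began at 112100694, which is 228 bases upstream of Gm41062, in the window chr13:112100672-112100971 (plus strand), and G10995.5 began at the very base where RefSeq starts Gm40376, 32724728, in chr12:32724478-32724777 (plus strand). Capitals run from the member's start to the RefSeq start, which for Gm40376 is a single base.
Gm41062: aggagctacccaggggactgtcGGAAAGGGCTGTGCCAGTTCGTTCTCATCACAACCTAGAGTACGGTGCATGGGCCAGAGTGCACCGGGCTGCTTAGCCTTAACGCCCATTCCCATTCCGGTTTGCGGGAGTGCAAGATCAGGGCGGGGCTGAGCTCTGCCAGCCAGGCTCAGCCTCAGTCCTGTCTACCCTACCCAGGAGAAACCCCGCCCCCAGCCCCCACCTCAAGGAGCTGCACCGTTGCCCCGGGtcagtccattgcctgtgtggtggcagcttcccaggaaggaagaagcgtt
Gm40376: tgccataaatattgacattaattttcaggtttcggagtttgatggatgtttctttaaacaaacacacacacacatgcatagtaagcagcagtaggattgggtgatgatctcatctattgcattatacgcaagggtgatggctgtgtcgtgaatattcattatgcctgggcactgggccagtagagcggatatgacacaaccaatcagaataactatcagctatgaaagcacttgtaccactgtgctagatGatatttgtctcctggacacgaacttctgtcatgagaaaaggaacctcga

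The 20 genomic bases after the 3′ end, which the authors' classification lists, show whether a template run of A could have primed the cDNA there. They are printed for the most abundant member, for 3 transcripts high in stem cells and for 3 high in progenitors. A run of 4 A would be in capitals, and none of the 7 holds one.
Rpl34-ps1_AS.G43231.5: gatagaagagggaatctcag
G31422.1: taatagattttttttttgag
Psmd11_AS.G8578.129: ctttttttttttcctcgaga
G5079.8: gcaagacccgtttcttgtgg
Gm9843_AS.G21102.1: gcaagtactcttacttgcta
G25967.1029: gtggccggttggtggtggcg
G41713.1378: tactgatttggtcatttttc
Their A content ran from 0 of 20 bases in G25967.1029 to 8 of 20 (40%) in Rpl34-ps1_AS.G43231.5. Among the other increases named below for R10 stem cells, Trim6_AS.G47626.30 had 55% and G48719.940 had 50%. Over the 2471 members the median was 20% and the maximum 55%. No intergenic, antisense or genic_intron transcript had 60% or more, against 0.831% of full-splice_match transcripts. A content before the authors' filter was not examined, so these values cannot show whether A-rich ends had been removed. A run of 4 A stood after 182 members (7.37%), close to the 6.64% of all transcripts in the table.

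Intergenic transcripts were short and simply spliced. Their median length was 718 bases (range 200 to 6866), against 1610 for all transcripts, 1885 for full-splice_match transcripts, 809.5 for antisense and 950 for genic_intron. Every member had more than 1 exon, canonical splice sites and a poly(A) motif, and none was marked as reverse-transcriptase switching. Before the authors' filter, no intergenic transcript had a single exon or a non-canonical splice site either, while 15934 had no poly(A) motif and 160 were marked as switching. Members with 2 exons numbered 1563 (63.3%), those with 3 exons 614 and those with 4 exons 217. Among all transcripts 10.3% had 2 exons, among full-splice_match 9.89%, among antisense 76.7% and among genic_intron 87.7%. The canonical AATAAA was the motif of 1275 members (51.6%) and its common variant ATTAAA that of 396 (16.0%).

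The classification marked the start of 1288 members (52.1%) as within a CAGE peak, against 81.4% of all transcripts, 91.0% of full-splice_match, 38.5% of antisense and 41.3% of genic_intron. Before the authors' filter the share among intergenic transcripts was 30.9%. The distance that the classification lists to the peak had a median of 491 bases over the 1288, and 152 of them (11.8%) lay within 100 bases, against a median of 646 bases and 7.13% among all transcripts so marked. The mark thus places a start in a broad region, not at a mapped cap. A coding call was given to 441 members (17.8%), against 83.6% of all transcripts. The reading frames of these 441 had a median of 118 residues, 50 reached 300 residues and the longest had 1063. Coding members were longer (median 1059 bases) than non-coding members (671.5 bases).

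**Figure D1:**
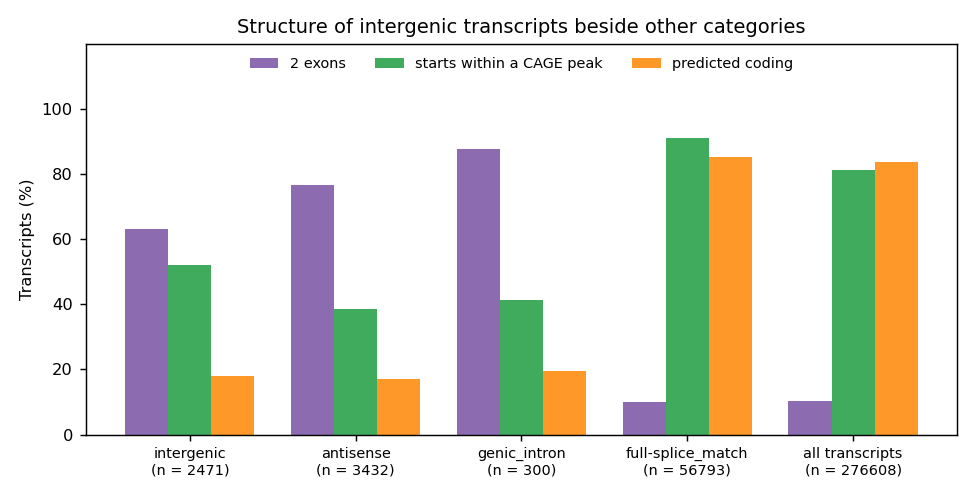
Share of transcripts (y axis, %) with 2 exons, marked as within a CAGE peak and with a coding call, for intergenic transcripts and for 4 reference sets (x axis, number of transcripts in brackets). Intergenic transcripts sat at 63.3%, 52.1% and 17.8%, nearer to antisense and genic_intron transcripts than to full-splice_match transcripts.

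Intergenic in the classification did not mean far from annotated genes. Set against GENCODE M21, 598 members overlapped a gene span, 325 of them on the same strand, and against RefSeq 1491 did. The RefSeq genes overlapped were lncRNAs for 823 members, protein-coding for 534 and pseudogenes for 65. No gene span of either annotation was touched by 947 members, and 334 members lay more than 10000 bases from any. By chromosome, the most members lay on chromosomes 2 (236), 8 (214) and 5 (204), and 1 lay on the mitochondrial genome.

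Some members started close to a gene on the other strand. A protein-coding start lay within 1000 bases of 334 member starts, and for 328 of them the gene lay on the opposite strand. These 328 members, called divergent here, paired with 205 genes at a median of 130 bases between the starts. Whether each member began upstream of the gene's start was not checked. Of the 328, 321 were marked as within a CAGE peak, which their place near gene starts favours. RefSeq promoter windows of 300 bases held the starts of 412 members, 194 on the opposite and 285 on the same strand as a gene, some on both. The 127 windows with an opposite member had a median GC content of 60.3% and 22 CG dinucleotides, against 52.7% and 7 in all 32817 windows. On either strand, the letters TATAAA were found in 4.72% of the 127 windows and 13.6% of all, and the letters CCAAT in 44.1% and 37.4%. Sertad1, printed above, is one of these windows.

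Expression was concentrated in few members. Rpl34-ps1_AS.G43231.5 (chr6:71101802-71125054, minus strand, 525 bases, 2 exons, no CAGE peak) held 53.6% of all TPM summed over members and libraries. The top 10 members held 69.2% and the top 100 held 82.1%. A mean of at least 1 TPM was reached by 767 members, at least 10 TPM by 82 and at least 100 TPM by 10. Most of the rest were rare: the median member had 12 reads over all 45 libraries, 935 never reached 3 reads in any library, and 2 were above 0 in every library. At such depth a single read decides a level, and limma calls that rest on 1 or 2 reads a library are counted below.

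Rpl34-ps1_AS.G43231.5 is named after a processed copy of a ribosomal protein gene, and reads of near-identical copies may be shared out between loci, so its level is uncertain. The 4 R10 NPC libraries held 6725 (OKMS), 6917 (OKS), 6594 and 6723 TPM (WT replicates 2 and 3). The 7 R10 ESC libraries held 6130 to 7471 TPM (median 6994). ESC and NPC overlapped, with a log2 difference of 0.03 ± 0.06 (SE; limma, adjusted p = 0.64). R10 OKMS held 7099 TPM on day 2, within the ESC range, and 8756, 9328, 13645 and 10968 TPM on days 4, 6, 10 and 18, above it. In R9 the highest value was also in OKMS at day 10, 11450 TPM. Both WT libraries after 2 days of FBS-LIF with doxycycline were the lowest in R10, at 4174 and 4775 TPM.

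Members took up 1.39% to 1.74% of TPM in the 7 R10 ESC libraries and 1.09% to 1.19% in the 4 NPC libraries, with no overlap. Without the most abundant member the shares were 0.698% to 1.03% and 0.413% to 0.512%. R9 ESC held 1.39% and 1.59%, and R9 NPC 1.07% to 1.12%. The highest share of all 45 libraries was in R10 OKMS at day 10 (2.06%), where Rpl34-ps1_AS peaked, and the R10 OKS library of day 18 in FBS-LIF held 0.939%, of which 0.200% was outside that member.

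**Figure D2:**
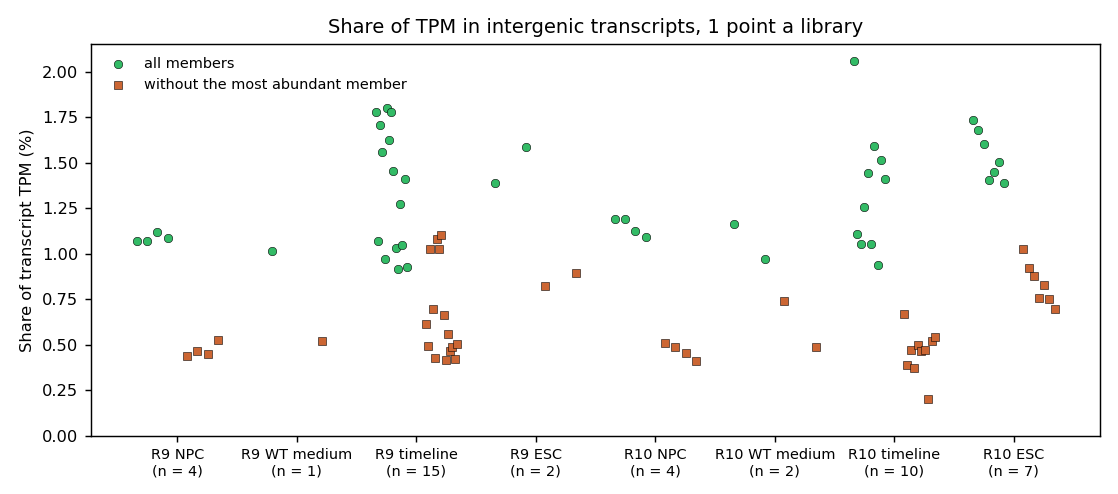
Share of a library's transcript TPM that fell on intergenic transcripts (y axis, %), 1 point a library, for groups of libraries (x axis, n in brackets), with all members and without Rpl34-ps1_AS.G43231.5. ESC libraries lay above NPC libraries in both chemistries, and late timeline libraries spread up to 2.06%.

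Stem cells were compared with progenitors within R10 (7 against 4 libraries), the deepest contrast of the study. To be tested, a transcript needed at least 1 TPM in 4 of the 11 libraries, which 690 of the 2471 members did. This admits a transcript seen only in stem cells more readily than one seen only in progenitors, and a member admitted through its high group alone had to differ, so counts over tested members are no support for a direction. Calls needed a Benjamini-Hochberg adjusted p under 0.05 in limma and a log2 difference of at least 1. Of the 690 members, 384 (55.7%) were higher and 129 (18.7%) lower in stem cells. Of all 58952 transcripts tested, 39.8% were called, 23.4% higher and 16.4% lower. The median difference was 1.21 (log2) over the members tested and 0.17 over all. edgeR on recovered reads called 383 higher and 133 lower, 498 of them shared with limma, and 26.9% and 16.5% of all transcripts. Where the R1 library without an n number was the only stem cell library, the spread came from the 4 NPC libraries alone, and the R1 library was assumed to vary like them. There 487 of 1251 members tested were higher and 28 lower, against 8.7% and 2.55% of all 105258 transcripts. Against WT progenitors alone 262 were higher and 164 lower of 964, against 12.4% and 13% of all 77706. These results turn on members listed at 0.

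In most of the higher members the progenitor side was exactly 0. Of the 690 members, 379 were listed at 0 in all 4 NPC libraries and 73 in all 7 ESC libraries. Of the 384 higher members, 344 were at 0 in all NPC libraries, whereas among all transcripts called higher 5936 of 13800 were (43.0%). Of the 238 members with reads in both states 40 (16.8%) were higher and 56 (23.5%) lower, against 15.6% and 15.7% of all 50474 such transcripts. Asking for reads in both states left out 344 of the 384 higher and 73 of the 129 lower members. The balance of those kept therefore cannot show a direction. Some of the zeros fell where reads were deep. Of 23 members with at least 20 reads in every R10 ESC library, 11 were at 0 in all NPC libraries, as were 12 of 40 antisense transcripts (30%) and 96 of 3341 full-splice_match transcripts (2.87%). In the other direction it was 3 of 13 members, 19 of 48 antisense transcripts (39.6%) and 50 of 3347 full-splice_match transcripts (1.49%). Deep zeros were thus seen in antisense transcripts too.

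Zeros also broke time series. Along the timelines, 75 member values lay between neighbouring days that both had at least 10 depth-scaled reads, and 6 of the 75 were 0. All 6 were day 2 libraries (6 of 23), and none of the 52 later values was 0. Antisense transcripts gave 21 of 206, 20 of them on day 2, and full-splice_match transcripts 23 of 26460 (0.0869%). G49462.1 is the clearest case: its level was 711, 0 and 545 TPM on days 0, 2 and 4 of R10 OKMS and 320, 0 and 495 TPM in R9 OKMS. R10 OKS gave 534 and 0 TPM on days 0 and 2, with 368 TPM on the next day sampled, day 6, and R9 OKS gave 292, 0 and 381 TPM on days 0, 2 and 4. How the authors' program set these values was not tested, so a member is described below as listed at 0, and a log2 difference against such a group is no bound on a fold change.

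**Figure D3:**
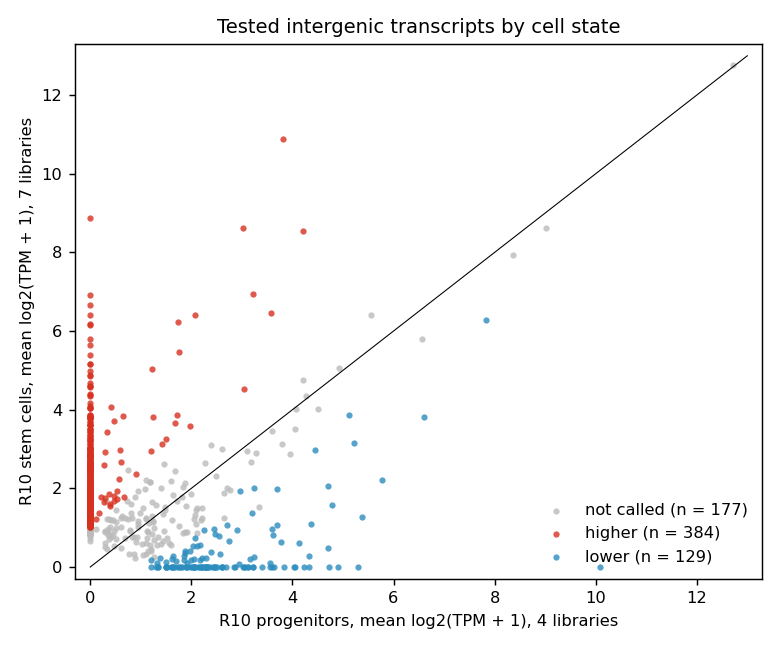
Mean log2(TPM + 1) of the 690 tested intergenic transcripts in the 4 R10 NPC libraries (x axis) and the 7 R10 ESC libraries (y axis), 1 point a transcript, coloured by call, with a line of equal means. Most of the 384 higher members stand in a column at 0 on the x axis, and the point at the upper right, on the line, is Rpl34-ps1_AS.G43231.5.

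G31422.1 had the largest increase in stem cells. It lies on chr2:168310884-168316845 (minus strand), is 322 bases long with 2 exons and an AATAAA 37 bases before its end, and stands outside CAGE peaks and 4122 bases from the nearest RefSeq gene, the lncRNA Gm33262. Its R10 ESC levels ran from 287 to 881 TPM (median 458, from 197 to 424 reads), and it was listed at 0 in all 4 NPC libraries. ESC and NPC did not overlap, and the difference was 8.86 ± 0.26 (log2, SE; limma adjusted p = 4.5e-11). R9 repeated the pattern in other libraries, with 149 and 440 TPM in ESC and 0 in all 4 NPC (limma adjusted p = 0.00076, edgeR adjusted p = 0.014). The nearest protein-coding start on that strand is that of Kcng1, a potassium channel subunit, 35109 bases away. Kcng1 moved the other way, at 0.241 CPM in R10 ESC and 4.86 CPM in NPC (limma log2 difference −1.97 ± 0.35, adjusted p = 0.00014).

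Psmd11_AS.G8578.129 was the most abundant of the higher members. It is named for Psmd11, a proteasome subunit gene on the opposite strand, within whose span part of it lies (chr11:80426444-80540377, minus strand, 211 bases of exon around an intron of 113723 bases). R10 ESC levels ran from 1145 to 3071 TPM (median 1838), and NPC levels were 30.7 (OKMS), 11.6 (OKS), 3.01 and 23.8 TPM (WT), from 1 to 9 reads. The difference was 7.05 ± 0.45 (limma adjusted p = 5.0e-08). With the R1 library without an n number as the only stem cell library the difference was 6.34 (limma adjusted p = 0.081). R9 gave 853 and 1092 TPM in ESC and 0 to 27.4 TPM in NPC. Psmd11 itself was at 139 CPM in ESC and 75.3 CPM in NPC, below the threshold for a call on size. Reads of an antisense transcript and of its partner can be mixed up where counting ignores strand, and the sources used here do not give the setting.

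G5079.8 was the longest of the leading transcripts and is among the members with a coding call. Its 3123 bases (chr10:74714783-74719966, minus strand) hold a predicted reading frame of 112 residues, and its start is marked as within a CAGE peak (listed distance −580 bases). It lies 64952 bases from Pcdh15 by RefSeq. R10 ESC levels were 77.6 to 177 TPM (median 148, from 382 to 1188 reads), and NPC was listed at 0 (difference 6.91 ± 0.27, limma adjusted p = 4.7e-10). R9 ESC held only 2.01 and 2.71 TPM, from 3 and 4 reads. The R10 difference exceeded the R9 difference by 5.17 ± 0.48 (limma interaction, adjusted p = 9.1e-06). NPC was listed at 0 in both chemistries, so this value restates a higher level in R10 ESC than in R9 ESC.

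The other 7 named increases were each above 25 TPM in all 7 R10 ESC libraries and, except for G45795.409, listed at 0 in all 4 R10 NPC libraries. Trim6_AS.G47626.30 (chr7:104234444-104285695) ran from 49.1 to 134 TPM in ESC. Its partner Trim6, an E3 ubiquitin ligase gene, rose as well, from 0 to 61.4 CPM. G17408.2 (chr15:8821359-8822879) overlaps the span of the RefSeq lncRNA Gm31340, is marked as within a CAGE peak at a listed distance of −1779 bases, and ran from 28.0 to 145 TPM. Its nearest protein-coding start, on the same strand and 112115 bases away, is that of the glutamate transporter gene Slc1a3. Slc1a3 fell from 165 CPM in NPC to 1.54 CPM in ESC. G37064.407 (56.0 to 121 TPM), G48719.940 (49.4 to 126 TPM), G50375.5 (25.2 to 88.5 TPM) and G50597.5 (28.3 to 65.6 TPM) had differences from 5.64 to 6.19. G45795.409, divergent to Sertad1, ran from 276 to 797 TPM in ESC and from 2.66 to 11.1 TPM in NPC (difference 5.60 ± 0.33, limma adjusted p = 2.1e-08). Its partner did not pass, with Sertad1 at 22.1 ± 4.6 CPM (SD, n = 7) in ESC and 19.4 ± 2.4 CPM (SD, n = 4) in NPC (limma adjusted p = 0.42).

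Gm9843_AS.G21102.1 had the largest decrease. It is a 525-base transcript with 2 exons on chr16:76377178-76403712 (plus strand). Its span overlaps the GENCODE lincRNA Gm49587 on the same strand and the RefSeq pseudogene Gm9843. Similar sequence elsewhere could make its level uncertain, which was not tested. R10 NPC levels were 1087 (OKMS), 1054 (OKS), 998 and 1221 TPM (WT), from 451 to 1148 reads, and all 7 ESC libraries were listed at 0. The difference was −10.09 ± 0.17 (limma adjusted p = 5.2e-13). R9 NPC held 302 (OKMS), 210 (OKS), 281 and 310 TPM (WT), with 0 in both ESC libraries. OKS in FBS-LIF was listed at 0 on every day sampled in both chemistries. In 2i-LIF, R9 OKS held 240 TPM on day 20 and R9 OKMS 371 and 409 TPM on days 14 and 20. R10 OKS and OKMS in 2i-LIF were both listed at 0 on day 18. R9 OKMS was listed at 0 on days 2, 4 and 6 and then held 502, 505 and 229 TPM on days 10, 14 and 20. R10 OKMS was likewise at 0 on days 2 to 6, held 1737 TPM on day 10 and was at 0 again on day 18.

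The other named decreases were smaller and rested on fewer reads. G25967.1029 (chr19:5786143-5787066, minus strand, marked as within a CAGE peak at a listed distance of −97 bases) lies 8624 bases from Malat1, an abundant nuclear lncRNA. It was at 56.6, 40.4, 30.9 and 29.7 TPM in R10 NPC, from 21 to 39 reads a library, and at 0 in ESC (difference −5.29 ± 0.23, limma adjusted p = 1.3e-09). G41713.1378, opposite to the actin-bundling gene Fscn1, held 21.6 to 41.6 TPM in NPC and 0 in ESC. Npas3_AS.G11272.3 held 11.4 to 25.9 TPM in NPC and 0 in ESC, and its partner Npas3, a neural transcription factor gene, was at 18.2 CPM in NPC and 0 in ESC. G12068.3 (38.1 to 43.4 TPM in NPC) and G15096.1 (14.4 to 33.0 TPM in NPC) kept a few reads in ESC, at up to 6.13 and 1.25 TPM. G12046.177, G3085.11, G41791.49 and G10995.5 completed the 10, with differences from −4.72 to −4.04. With the R1 library without an n number as the only stem cell library, G12046.177 and G10995.5 kept differences of −4.72 and −4.04 but did not pass (limma adjusted p = 0.057 and 0.34).

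**Figure D4:**
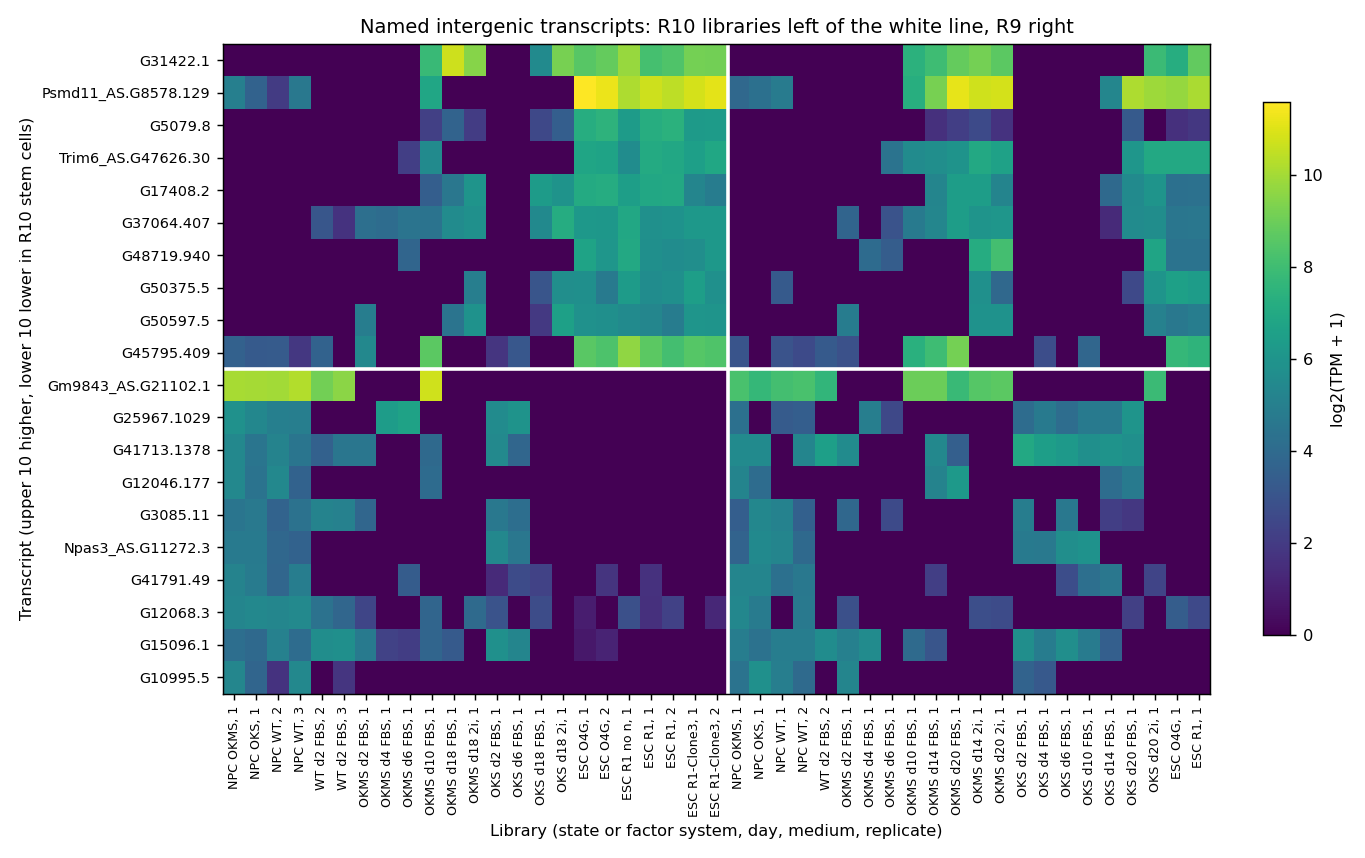
log2(TPM + 1) of the 10 members with the largest increases and the 10 with the largest decreases in R10 stem cells (y axis), in each of 45 libraries (x axis, R10 left and R9 right of the white line). Dark cells are values listed at 0: the increases are dark in most NPC libraries, except for Psmd11_AS.G8578.129 and G45795.409, each above 0 in 7 of the 8, and vary among late libraries, while the decreases are light in NPC and mostly dark in ESC.

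Among divergent members the lower calls outnumbered the higher ones in R10. Of 73 divergent members tested, 7 were higher and 29 lower in stem cells, with a median difference of −0.71 (log2), against 23.4% higher and 16.4% lower of all 58952 transcripts, and edgeR called 8 and 28 (26.9% and 16.5% of all). Of the 617 other members, 377 were higher and 100 lower, with a median of 1.31. The members that touched no RefSeq or GENCODE gene included 185 higher and 37 lower of 269. Of 410 members marked as within a CAGE peak 235 were higher and 67 lower, and of 280 outside 149 and 62. Coding members gave 74 higher and 24 lower of 119 (62.2% and 20.2%) and non-coding members 310 and 105 of 571 (54.3% and 18.4%). These splits are counts without a test of their difference. In R9, 7 divergent members were higher and 7 lower of 90, against 9.75% and 3.66% of all transcripts.

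For 71 divergent members the partner gene was tested too (55 genes). Across these pairs the member's and the partner's differences had Pearson r = 0.42, a description over pairs that share partners and libraries. The member was called in 35 of the 71 pairs, against 39.8% of all 58952 transcripts. The partner was called in 25 pairs, against 45.8% of all 15415 genes tested on gene CPM. Both were called in 12 pairs, in the same direction in 9 (2 higher, 7 lower). In the other 3 the member was lower and the partner higher. G6371.25 had a difference of −1.16 (log2), while Myl6b, a myosin light chain gene, had 1.5. G50589.1440 and G50589.1441, from a shared locus, had −1.05 and −1.48, while their partner Gcdh, the gene of glutaryl-CoA dehydrogenase, had 1.16. The member alone was called in 23 pairs and the partner alone in 13, and the median difference of the partners was 0.03.

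R9 gave the same contrast with 2 ESC and 4 NPC libraries and far fewer reads. Of 713 members tested, limma called 251 higher (35.2%) and 43 lower (6.03%), against 13.4% of all 80885 transcripts, 9.75% higher and 3.66% lower. Of the 251 higher members 245 were listed at 0 in all NPC libraries, as were 7248 of 7888 higher transcripts among all. Of the 43 lower members 39 were at 0 in both ESC libraries, as were 1964 of 2959 among all. As in R10, counts over tested members are no support for a direction. Of the 713, 420 (58.9%) never reached 3 reads in any of these libraries, as did 137 of the called members (11 of the 513 in R10). edgeR called 29 higher and 6 lower (1.25% and 1.25% of all transcripts), and with at least 3 reads required limma called 65 and 22 of 152 (10.3% and 11.6% of all). Leaving out the O4G library leaves a single stem cell library and a looser filter, with 1156 members tested. A count from that fit cannot be set beside the one above. Of the 386 members tested in both chemistries, 297 were called in R10 and 216 in R9. They shared 207 with the same direction, 69.7% of the R10 and 95.8% of the R9 calls, and none had opposite directions. Over all 42221 transcripts tested in both, 5116 were shared, 29.6% of the R10 and 78.3% of the R9 calls, and 63 had opposite directions. By edgeR 33 were shared, 11% of the R10 and 97.1% of the R9 calls.

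The difference between the chemistries was tested on 1438 members. In 33 the R10 difference was the higher one and in 69 the lower, against 4.42% of all 128302 transcripts called, 1.26% higher and 3.16% lower. Without the R9 R1 library the count fell to 21 and 39. Named members higher in R10 stem cells but not in R9 were G52798.111 (ESC minus NPC of 2.56 and −1.45, log2), Spg21_AS.G53545.1 (3.81 and 0) and G30961.3 (3.68 and 0). G52798.111 lost its call with a pseudocount of 0.25 (limma adjusted p = 0.076), with no filter (0.080) and without any of 12 single libraries (0.058 to 0.12). G30961.3 lost it with no filter (limma adjusted p = 0.054), without either R9 ESC library (0.097 and 0.10) and without any 1 of the R10 NPC libraries (0.053 to 0.054). G45606.161 differed through R9, where its difference was −3.45 against −0.17 in R10. The R9 difference was the higher one for G56924.15, G56367.12, Zfp125_AS.G10764.10, G31852.2 and Gm13296_AS.G27574.36, at 3.56 to 6.56 in R9 and 0 to 2.63 in R10. Of these 5, G56367.12 alone had more than 4 reads in an R9 ESC library, with 66.4 and 131 TPM from 7 and 14 reads, and it lost its call with a pseudocount of 0.25 (limma adjusted p = 0.091) and without O4G (0.089). Of the transcripts named for R10 stem cells, besides G5079.8, the limma interaction called G37064.407 (R10 minus R9 of 1.62), G48719.940 (1.74) and Gm9843_AS.G21102.1 (−1.99), with adjusted p = 0.028, 0.041 and 0.0014. The lower state of each was at 0 in both chemistries, so these values restate a higher R10 level in the other state. The R10 and R9 libraries also differed in poly(A) selection, amplification and depth, which cannot be told apart here.

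During reprogramming the summed level of the higher members was highest late, and in FBS-LIF it was higher in OKMS than in OKS on every day sampled in both. These sums have 1 library a point and no test. Summed over the 384 members, the R9 NPC libraries held 217 to 385 TPM. R9 OKMS held 571, 661, 704, 1476, 2702 and 5920 TPM on days 2, 4, 6, 10, 14 and 20, and OKS 202, 244, 233, 277, 394 and 2786 TPM. At day 20 the OKMS sum was thus above those of the R9 ESC libraries (4412 and 4983 TPM) and the OKS sum below them. Of the OKMS sum 2304 TPM was Psmd11_AS.G8578.129 alone, which held 853 and 1092 TPM in R9 ESC. In that OKMS library 173 of the 384 members were above 0, against 247 and 256 in R9 ESC. In 2i-LIF the sums were 6389 and 6581 TPM for OKMS at days 14 and 20 and 6147 TPM for OKS at day 20. R10 OKMS held 1133, 930, 2083, 1671 and 3382 TPM on days 2, 4, 6, 10 and 18, and OKS 138, 257 and 1050 TPM on days 2, 6 and 18, with 3830 and 4120 TPM in 2i-LIF. Trim50_AS.G41364.2, named for an E3 ubiquitin ligase gene, was the highest of the 384 in OKMS on days 2, 4 and 6. In stem cells it was less clear: R10 ESC held 407 to 774 TPM in the 6 numbered libraries, but 47.4 TPM in the R1 library without an n number, within the 2.20 to 67.6 TPM of R10 NPC, and R9 ESC (115 and 49.9 TPM) overlapped R9 NPC (11.4 to 69.4 TPM). On days 2, 4 and 6 of OKMS it held 802, 691 and 1605 TPM in R10, most of those sums, and 307, 187 and 163 TPM in R9, most of the sum on day 2 alone. It was listed at 0 in every OKS library in FBS-LIF. Without it R10 OKMS held 330, 238 and 478 TPM on those days, against 138 and 257 TPM in OKS on days 2 and 6, and R9 OKMS held 264, 473 and 542 TPM against 202, 244 and 233 TPM. The members were chosen on R10 ESC and NPC, so the R9 and timeline values are the ones the choice did not use. In bulk cultures a few fully reprogrammed cells and a low level in many cells cannot be told apart.

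The summed level of the 129 lower members was lower in OKMS than in OKS on early days. R9 NPC held 1292 to 1621 TPM of them, OKMS 516, 417 and 309 TPM on days 2, 4 and 6, and OKS 964, 909 and 889 TPM on those days. On days 10 and 14 OKMS was back at 822 and 879 TPM, of which 502 and 505 TPM were Gm9843_AS.G21102.1, and OKS held 966 and 599 TPM. On day 20 OKMS stood at 620 TPM and OKS at 349 TPM, and R9 ESC at 247 (O4G) and 214 TPM (R1). R10 OKMS held 475, 382 and 412 TPM on days 2, 4 and 6, then 2321 TPM on day 10, of which 1737 TPM was Gm9843_AS.G21102.1, and 246 TPM on day 18. R10 OKS held 1344, 1308 and 201 TPM on days 2, 6 and 18. The R10 NPC libraries chose these members and are no starting level.

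G31422.1 followed the late course. It was listed at 0 in every OKMS and OKS library up to day 6 in both chemistries. In OKMS it held 175, 254 and 456 TPM on days 10, 14 and 20 of R9, and 228 and 1649 TPM on days 10 and 18 of R10. OKS in FBS-LIF was still at 0 on day 20 of R9 and at 44.9 TPM on day 18 of R10, whereas OKS in 2i-LIF held 239 and 599 TPM. Psmd11_AS.G8578.129 rose in R9 to 2304 TPM (OKMS) and 1138 TPM (OKS) on day 20, yet it was listed at 0 in all 4 R10 libraries of day 18. Early reads were few: on day 2 of OKMS G37064.407 held 12.5 TPM in R9 and 17.9 TPM in R10, and G50597.5 held 27.9 and 28.8 TPM. G37064.407 was also at 7.44 and 2.23 TPM in the R10 WT libraries after 2 days without factors, and reached 86.9 TPM on day 20 of R9 OKMS.

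**Figure D5:**
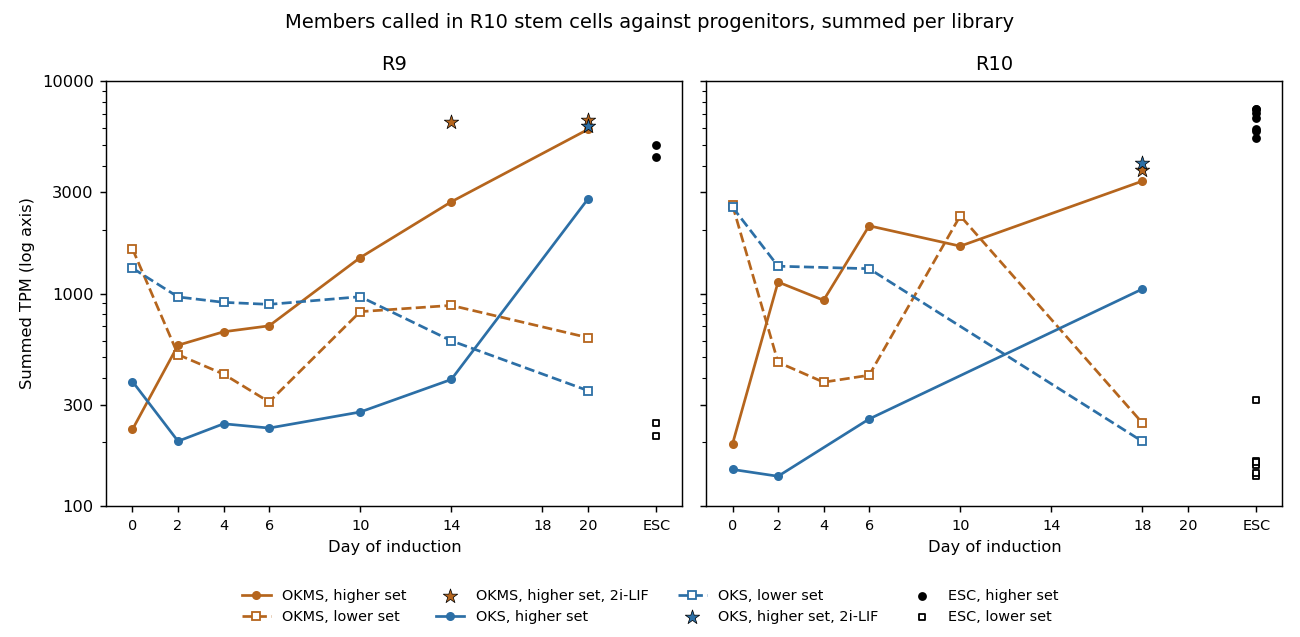
Summed TPM (y axis, log scale) of the 384 higher (filled) and 129 lower (open) members by day of induction (x axis) in R9 (left) and R10 (right), lines for OKMS and OKS in FBS-LIF with doxycycline, stars for 2i-LIF and black points for ESC libraries. Day 0 is the NPC library of each system; the higher set reached 5920 TPM in R9 OKMS and 2786 TPM in R9 OKS on day 20, and its 2i-LIF values, the only ones drawn for that medium, lie above the FBS-LIF value of the same day and system. R10 day 0 and ESC values are those that chose the sets.

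The R9 time course was tested over 14 libraries with OKMS and OKS as the replicates of a day. Of 1266 members, 4 were called with a largest difference upward and 2 downward, against 0.129% of all 138612 transcripts (0.0447% up, 0.0844% down). An unadjusted limma p under 0.05 was reached by 257 members and by 13629 of all transcripts. edgeR called 29 and 10, of which 3 were shared, and 0.891% and 0.721% of all transcripts. Leaving out any single library left at most 4 limma calls, and leaving out the OKS library of day 20 left 0 (194 at an unadjusted p under 0.05). G17408.2 was above 0 only late, with 38.2 and 85.2 TPM in OKMS and 14.6 and 45.1 TPM in OKS on days 14 and 20 (limma adjusted p = 0.021, edgeR adjusted p = 8.8e-07). Pcgf3_AS.G40315.223 held 145 and 83.9 TPM on day 10 and 81.9 and 117 TPM on day 20 in OKMS and OKS, but 0 on day 14 in both (limma adjusted p = 0.0072). Bptf_AS.G9772.4 and G56367.12 were seen on day 20 alone, and edgeR did not call either (adjusted p = 0.46 and 1.0). G12046.177 was at 0 from day 2 to day 10 (limma adjusted p = 0.024, edgeR adjusted p = 0.17).

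WT libraries after 2 days of FBS-LIF with doxycycline, without factors, were compared with untreated WT progenitors (2 against 2 libraries of R10). Medium, doxycycline and time in culture changed together and cannot be told apart here. Of 616 members tested, 156 were higher and 63 lower, against 15.7% of all 57997 transcripts, 7.83% higher and 7.84% lower. edgeR called 12 and 6 (1.05% and 1.35% of all transcripts), and with at least 3 reads required limma called 77 and 47 of 304 (9.05% and 9.35% of all). Of the 156 higher members 133 were at 0 in both untreated libraries, as were 3031 of 4542 higher transcripts among all. Of the 63 lower members 61 were at 0 in both treated ones, as were 3293 of 4545 among all. The count rests on single libraries: leaving out untreated replicate 2 or 3 left 0 limma calls (234 and 284 members at an unadjusted p under 0.05), and leaving out treated replicate 2 or 3 gave 296 or 336. The sum of 4 astrocyte genes was 1188 and 3057 CPM in the treated and 42.6 and 93.3 CPM in the untreated WT libraries. Most of the treated sum was Gfap, at 1056 and 3015 CPM against 5.16 and 5.72 CPM. Aqp4 was at 19.6 and 37.6 CPM against 0. S100b (18.4 and 92.9 against 31.1 and 86.4 CPM) and Aldh1l1 (1.98 and 3.13 against 1.72 and 5.72 CPM) overlapped. The part of astrocyte genes in these changes was not tested. Of 151 divergent members 45 were higher and 2 lower by limma, against 7.83% and 7.84% of all transcripts, and 2 and 0 by edgeR, against 1.05% and 1.35%.

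G49234.329 (chr8:20287696-20415279) held 224 and 79.9 TPM in treated replicates 2 and 3 and 0 in the untreated ones (difference 7.08 ± 0.57, limma adjusted p = 0.022, edgeR adjusted p = 0.033). It overlaps the pseudogene 6820431F20Rik, so its placement is uncertain. G7590.1100 overlaps the span of Sparc, a secreted matrix protein gene, on the same strand, with its start 16228 bases from that of Sparc. It held 113 and 32.7 TPM against 0, beside 4567 CPM of Sparc in treated and 908 CPM in untreated libraries. G28074.76, which overlaps the span of the volume-regulated channel gene Lrrc8a, held 119 and 40.1 TPM against 0. G21209.9 (17.2 and 197 TPM against 0) did not pass in edgeR (adjusted p = 0.11). G44646.2 (chr6:128798752-128839194) was the largest decrease, from 530 and 274 TPM to 0 (difference −8.58 ± 0.41, limma adjusted p = 0.010). G33447.451 (48.9 and 32.9 TPM to 0) and the mitochondrial G55235.1846 (51.4 and 19.7 TPM to 0, edgeR adjusted p = 0.056) were the other named decreases. G44646.2, G33447.451 and G55235.1846 each lost their limma call whichever library was left out, treated or untreated. Such a fit leaves a single library in a group.

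Late medium was compared in pairs of the same system and day. In R9 (3 pairs), 7 of 526 members were higher in 2i-LIF and 2 lower, against 0.329% of all 50168 transcripts (0.197% higher, 0.132% lower), and edgeR called 22 and 3 (0.955% and 0.897% of all). Each of the 9 had a medium listed at 0 in all 3 libraries, as had 74 of 99 higher and 48 of 66 lower transcripts among all. Without the OKMS pair of day 14 limma called 1 member, and without either day 20 pair 0 (199 and 233 at an unadjusted p under 0.05). Trim50_AS.G41364.2 held 368, 336 and 293 TPM in 2i-LIF (OKMS day 14, OKMS day 20, OKS day 20) and 0 in the FBS-LIF partners (difference 8.38 ± 0.44, limma adjusted p = 0.0013). G48719.940, one of the transcripts high in stem cells, held 143, 277 and 108 TPM against 0. G36938.10 (143, 216 and 106 TPM) and G17698.30 (91.0, 153 and 193 TPM) had the same pattern. G12046.177 (35.5, 76.9 and 26.2 TPM) and G45703.1 (25.4, 25.2 and 18.7 TPM) were seen in FBS-LIF alone, from 4 to 7 reads, and edgeR did not call G45703.1 (adjusted p = 0.066). In R10 (2 pairs at day 18) limma called 0 of 338 members, as it called 0% of all 44286 transcripts. An unadjusted limma p under 0.05 was reached by 115 members and by 7600 of all transcripts. edgeR called 3 members, all higher in 2i-LIF (0.269% higher and 0.253% lower of all transcripts). Of the R9 increases named above, Trim50_AS.G41364.2, G48719.940 and G17698.30 were listed at 0 in all 4 R10 libraries of day 18. G36938.10 held 223 and 297 TPM in 2i-LIF (OKMS and OKS) and 57.9 and 66.5 TPM in FBS-LIF.

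Gene CPM gave a second measure, by gene name, in the same R10 libraries. Of 451 member genes tested (of 2362 in the gene table), 257 were higher and 69 lower in stem cells, against 45.8% of all 15415 genes, 22.4% higher and 23.5% lower. On the recovered reads edgeR called 281 and 75 (25.4% and 23.9% of all genes) and DESeq2 280 and 71 (25.5% and 23.3%). With member TPM summed for each assembled locus, 278 were higher and 112 lower of 519, against 23.3% and 16.4% of all features in that fit.

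The loci with the most members did not share a direction, and calls on them stand beside 23.4% higher and 16.4% lower of all transcripts in R10. G34171 (17 members) had 1 of 2 tested members higher and G56924 (13 members) 1 of 1, with none lower. G41681 (17 members) had none tested. The others are described with their levels. G49244 (chr8:20297716-20582591, 31 members) had 2 members tested and 2 higher. Its level was 3.10 to 19.7 TPM in R10 ESC and 1.42 to 2.93 TPM in NPC. In R9, NPC held a median of 43.7 and up to 67.6 TPM, and ESC 18.6 and 19.1 TPM. The lowest R9 NPC value of this locus lay below both R9 ESC values, so these groups overlapped. G21879 (chr17:17005115-17518978, 25 members) had 6 of 13 higher and none lower, with 44.7 to 71.6 TPM in R10 ESC and 27.5 to 38.6 TPM in NPC. G29924 (25 members) had none tested in R10, and in R9 held 153 to 522 TPM in NPC and 77.3 and 138 TPM in ESC. G48569 (chr7:136047558-136159914, 14 members) had 6 members tested and 6 lower, with 33.3 to 58.3 TPM in R10 NPC and 0 to 0.492 TPM in ESC, and 36.8 to 93.2 TPM against 0 in R9. G10413 on chromosome 11 (12 members) had 5 of 6 tested members higher, with 13.9 to 44.3 TPM in R10 ESC and 0 to 0.688 TPM in NPC. Members of a locus share reads, so these counts are not separate observations.

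The genes whose log2(CPM + 1) was most like a member's log2(TPM + 1) over the 23 R10 libraries were picked by Pearson r among 16265 genes, as a description. G31422.1 was closest to Gm3333 (0.992), followed by Triml1 (0.985) and Ooep (0.985). Psmd11_AS.G8578.129 was closest to 2410021H03Rik (0.931), G5079.8 to H2-M6-ps_2410137M14Rik (0.976) and then Tsix (0.974). Among the decreases Gm9843_AS.G21102.1 was closest to Megf6 (0.904), G25967.1029 to Areg (0.893) and G41713.1378 to Aebp1 (0.952).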

How the data were processed

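Nanopore cDNA libraries (22 R9, 23 R10) were taken as deposited. The authors deposited transcript levels as TPM and gene levels as CPM, and reads had been mapped with minimap2 2.24-r1122 to mm10, per the submitters' processing notes. The authors' classification table, whose layout is that of SQANTI3 per the file headers, gave category, length, exons, CAGE and coding calls and the percent of A bases after each end. The annotation behind its intergenic category and the use of strand in counting are not given in the sources used here. Of the gene columns, 13 matched no sample and were not used.

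CPM values, and TPM times length, were whole multiples of the worth of a single read in each library (100% of values within 0.1 reads), which gave reads. Tests used limma 3.58.1 in R 4.3.3 on log2(value + 1), with trend, for transcripts of at least 1 TPM in as many libraries as the smaller group holds (2 for the time course and the interaction). p-values were Benjamini-Hochberg adjusted over all transcripts tested. A call needed adjusted p under 0.05 and a log2 difference of at least 1. edgeR 4.0.16 (quasi-likelihood) and DESeq2 1.42.0 on recovered reads were alternatives. Scripts were tested on simulated data, where limma with the few R9 stem cell libraries called unchanged transcripts of 1 or 2 reads and edgeR rarely did. Python 3.11.15, pandas 2.3.3 and numpy 2.4.6 did the joins. R9 and R10 were fitted apart, except for the interaction.

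Named transcripts were called members whose groups did not overlap (for the time course, called only; for the interaction, no overlap in at least 1 chemistry), 1 a gene, outside chromosome 18, by the size of the difference: 10 and 10 for R10 stem cells, 5 and 5 for the time course and the interaction, 4 and 4 for the medium comparisons, or fewer where fewer passed. A transcript that the rule named for the time course and for WT medium is not reported here. G49462.1, the divergent pairs, the loci and the sums without Trim50_AS.G41364.2 were chosen after their values were seen. The members and lists were chosen with earlier results of these data known. The comparisons of stem cells, WT medium and the time course share progenitor libraries. Gene spans and promoter windows came from GENCODE M21 and RefSeq (GRCm38.p6). Deposited coordinates overlapped the GENCODE place for 17718 of 17724 genes matched by name.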

Additional observations from a re-analysis of the deposited data

Results flagged for a closer look

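Of 41 groups of 4 to 7 libraries checked for the named transcripts, 5 held a library far from the others, and chance alone would flag about 1 in 20. In R10 stem cells the R1 library without an n number held the highest value of G37064.407, 121 TPM from 234 reads against 56.0 to 72.4 TPM in the other 6, so that the gap was 0.749 of the whole range. The same library held the highest value of G45795.409, 797 TPM against 276 to 410 TPM (gap 0.743 of the range). In R10 progenitors WT replicate 2 held 33.0 TPM of G15096.1 against 14.4 to 17.1 TPM (gap 0.856 of the range). In R9 progenitors the OKS library was the lowest for G15096.1, 19.8 TPM from 3 reads against 28.7 to 29.5 TPM (gap 0.912 of the range). For G50375.5, WT replicate 1 was the only R9 progenitor library above 0, at 8.84 TPM from 1 read, so that the gap was the whole range (1).

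The difference between stem cells and progenitors itself differed between R10 and R9, in the limma interaction, for 13 named members. R10 gave the greater log2 difference for G5079.8 (by 5.17), G52798.111 (by 4.01, with 8.55 to 30.7 TPM in R10 ESC and 0 in R9 ESC), Spg21_AS.G53545.1 (by 3.81) and G30961.3 (by 3.68). For G45606.161 R10 minus R9 was 3.28 because R9 fell by 3.45 and R10 had −0.17. R9 gave the greater one for G56924.15 (R10 minus R9 of −4.58), G56367.12 (−3.94), Zfp125_AS.G10764.10 (−3.69), G31852.2 (−3.56) and Gm13296_AS.G27574.36 (−3.37). Of these last members, the ones other than G56367.12 had at most 4 reads in either R9 ESC library. Among the transcripts named for R10 stem cells, R10 minus R9 was 1.62 for G37064.407, 1.74 for G48719.940 and −1.99 for Gm9843_AS.G21102.1, whose lower state was at 0 in both chemistries.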

How the results depend on the processing

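Counts of members called were recomputed under other pseudocounts, filters, scalings and tests. They are counts of members alone, and shares over all transcripts stand beside only some of them above. A change in a count given without that share may be a change in all transcripts. The same holds for the counts at an unadjusted p given above without that share. No named transcript reversed its direction, but the split of some counts did. With no filter WT medium gave 5 higher and 6 lower, against 156 and 63. Over the R10 days the time course gave 0 up and 2 down, against 4 and 2. The count for R10 stem cells was 513 of 690 tested. It became 168 of 198 with a minimum of 5 TPM and 338 of 406 with at least 3 reads. It ran from 483 to 505 as each library was left out. Filters, and leaving out a library, also changed the number tested in the results that follow. With 5 TPM it was 314 (R9), 510 (chemistry difference), 620 (time course) and 165 (WT medium). With at least 3 reads it was 152 (R9), 243 (time course), 304 (WT medium) and 140 (R9 late medium). With no filter it was 1306 (WT medium), 1371 (R9 late medium) and 704 (R10 late medium). The R9 count (294) became 132 with 5 TPM, 156 with median centring, 35 by edgeR and 87 with at least 3 reads (288 to 454 as libraries were left out). The chemistry difference (102) became 56 with 5 TPM (60 to 125). The R9 time course (6) became 2 with a pseudocount of 0.25, 11 with 5 TPM, 39 by edgeR, 20 with at least 3 reads, 2 over R10 days, 0 without day 20 and 2 without day 2 (0 to 4). WT medium (219) became 11 with no filter, 85 with 5 TPM, 65 with centring, 18 by edgeR and 124 with at least 3 reads (0 to 336). R9 late medium (9) became 4 with a pseudocount of 0.25, 74 with no filter, 25 by edgeR, 19 with at least 3 reads and 18 with no replicate block (0 to 1 as each pair was left out). R10 late medium (0) became 27 with no filter and 3 by edgeR, and leaving out a pair was not run, since 1 pair leaves no residual degree of freedom. Member genes on gene CPM (326 of 451 tested) became 73 of 92 with 5 CPM (303 to 353 as each library was left out).

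The WT replicate numbers were also used as a replicate block, which gave 352 calls. Replicate deviations correlated at 0.193 between the 2 groups, too few pairs to tell whether the numbers pair the samples. Of the values of the 20 named R10 transcripts under other settings 415 of 418 kept their direction and call, and the 3 that did not used the R1 library without an n number alone. The named transcripts of WT medium kept theirs in 80 of 112, those of R9 late medium in 50 of 72, those of the time course in 57 of 138 and those of the chemistry difference in 203 of 226. Depth is a limit: 935 of 2471 never had 3 reads in a library, intervals from reads cover counting error only, and the zeros described above enter every count.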
